A study of Homo sapiens with 6 samples.

Results

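The Wnt pathway genes described here are 60 genes named one by one by symbol: ligands, receptors, antagonists, the destruction complex, TCF factors and targets. All 60 were found in the table, which holds 61806 genes. They were measured by RNA sequencing in U87-MG, an established human glioma cell line, in 3 libraries of the negative control (NC, genotype wildtype) and 3 libraries labelled GRIK1 siRNA (genotype GRIK1 knockdown). GRIK1 encodes a kainate-type glutamate receptor subunit. The study used siRNA transfected with a lipid reagent, while the design text of the series speaks of shRNA, and no dose or time is labelled. The study designed siRNAs of several sequences, and its text says that the most efficient single sequence was carried into the experiments that followed. The labels do not say whether the numbers 1 to 3 mark sequences or replicate cultures. They were used as replicate numbers, so p-values measure the spread between these libraries only.

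Wnt ligands are secreted lipid-modified proteins that bind frizzled receptors and their co-receptors. When no ligand is bound, a destruction complex of APC, axin, casein kinase 1 and glycogen synthase kinase 3 marks beta-catenin for breakdown. When ligand is bound, dishevelled blocks that complex, and beta-catenin enters the nucleus and acts with TCF and LEF factors on target genes, some of which feed back on the pathway. WNT5A is best known for signalling that does not pass through beta-catenin, and in glioma it is known for its links to cell migration.

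The levels of the 60 genes spanned a wide range. A level is given as FPKM, the reads of a gene scaled to the length of its exons and to the total of the library, and a gene was tested where the 6 libraries averaged at least 0.5 FPKM. Of the 60 genes, 36 passed. A further 7 (WNT2, WNT3A, WNT11, FZD9, RSPO1, LGR6 and WIF1) had 0 counts in all 6 libraries, which allows up to 3 counts in each (95% limit, counting error only). Another 6 (WNT7A, LGR5, RNF43, DKK2, SFRP1 and NKD2) had a count somewhere but at most 3 in any library. The remaining 11 (WNT4, WNT10B, WNT16, FZD4, LRP5, DKK3, SFRP2, SFRP4, FRZB, NKD1 and TCF7L1) exceeded 3 counts in some library but stayed under the mean of 0.5 FPKM. Of the 36 tested genes, 8 had a mean of at least 10 FPKM, 20 lay from 1 to 10 and 8 lay under 1.

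**Figure D1:**
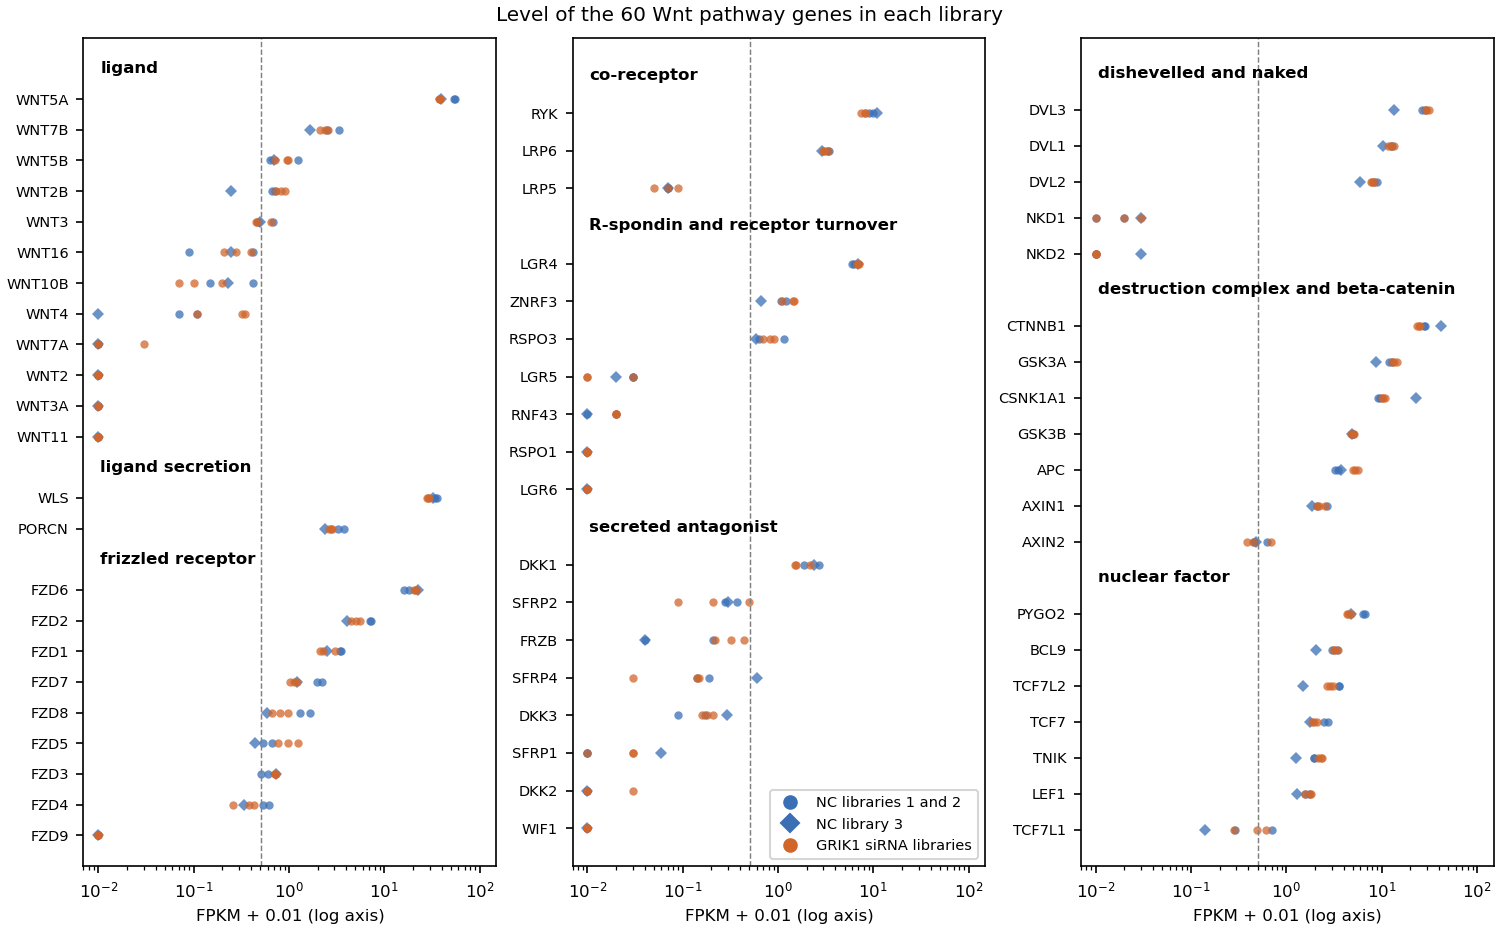
Level of each of the 60 Wnt pathway genes, grouped by role, with 1 point per library. The horizontal axis is FPKM + 0.01 on a log axis, diamonds mark NC library 3, and the dashed line marks the mean of 0.5 FPKM needed for testing. WNT5A, WLS, FZD6, DVL1, DVL3, GSK3A, CSNK1A1 and CTNNB1 average at least 10 FPKM, while 7 genes sit at 0 in every library.

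One library stood apart from the rest. Total counts ran from 11099909 to 14006968. NC library 3 (NC 3) correlated with the other 5 libraries at 0.952 to 0.968, while all other pairs correlated at 0.980 or above, across genes. The common dispersion of the counts was 0.0391 with all 6 libraries and 0.00298 without NC 3. Genes of ribosomal proteins, 82 in all, took up 8.45% of all counts in NC 3, 4.75% in NC 1, 4.99% in NC 2 and 4.35% to 4.37% in the siRNA libraries; the part of this in the results was not tested. For this reason the fits were made with and without NC 3. GRIK1 itself had 18, 9 and 8 counts under NC and 15, 20 and 20 under siRNA. It was not lower in the libraries labelled GRIK1 siRNA (difference 0.12 on the log2(FPKM + 1) scale, two-sided exact permutation p = 0.4, where 0.1 is the smallest possible). Of 9 markers of glioma lines, 5 averaged at least 0.5 FPKM, led by VIM and S100A6, while GFAP, SOX2 and S100B stayed at or under 0.28 FPKM in every library. GFAP had 13, 11 and 8 counts under NC and 39, 36 and 38 under siRNA, without overlap. S100A6 was lower in every siRNA library than in any NC library, and SOX2, at 4 counts or fewer, was higher. TNC was at 24.8 FPKM in NC 3 and at 144 to 163 elsewhere. The 5 immune markers summed to 4.57 to 8.59 FPKM in the NC libraries and 8.28 to 9.79 in the siRNA libraries. The lowest sum was in NC 3. AIF1 and C1QA were at 0 in all, and PTPRC was at or under 0.03 FPKM. CD74 was at 2.46 FPKM in NC 3, 5.22 to 5.37 in NC 1 and NC 2, and 4.81 to 6.05 under siRNA. The part of the immune markers in the results was not tested. Summed levels of the 5 neuronal (2.34 to 3.65 and 2.89 to 3.08), 4 endothelial (1.59 to 2.37 and 1.63 to 2.18) and 5 epithelial markers (1.58 to 2.29 and 1.82 to 2.39, KRT14 at 0) overlapped between the groups. Within the neuronal list, RBFOX3 and SYT1 were higher in every siRNA library than in any NC library, SNAP25 and NEFM were lower in every one, and STMN2 was at or near 0. CD68 of the immune list was likewise higher in every siRNA library, and KRT19 of the epithelial list was lower. RBFOX3 had 11 to 44 counts per library and KRT19 had 6 to 19. GFAP, SOX2, RBFOX3 and KRT19 averaged under 0.5 FPKM. Of all tested genes, 38.5% did not overlap between the groups. The part of these markers in the results was not tested.

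The starts of 5 genes are printed because they hold the letters searched for or the lowest adjusted p-values: DKK1 and TCF7 (feedback targets), TCF7L2 (a TCF factor), and APC and WNT5A, whose adjusted p-values were the lowest of the 60 genes. Each line is the 250 bases before a RefSeq transcript start (GRCh38.p14), 5′ to 3′ on the strand of the gene. Capitals mark the letters to which TCF and LEF factors are known to bind, CTTTGAA or else CTTTGAT or else CTTTGTA or else CTTTGTT, searched on both strands in windows from 250 bases before to 50 bases after the start. The capitals of TCF7 are the reverse complement of CTTTGTT.
DKK1, chr10:52314031-52314280, plus strand: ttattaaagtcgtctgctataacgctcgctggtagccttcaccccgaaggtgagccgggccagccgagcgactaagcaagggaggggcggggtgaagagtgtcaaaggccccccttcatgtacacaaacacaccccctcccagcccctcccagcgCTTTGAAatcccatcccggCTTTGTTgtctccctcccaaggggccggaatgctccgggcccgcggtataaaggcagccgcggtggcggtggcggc
TCF7, chr5:134123368-134123617, plus strand: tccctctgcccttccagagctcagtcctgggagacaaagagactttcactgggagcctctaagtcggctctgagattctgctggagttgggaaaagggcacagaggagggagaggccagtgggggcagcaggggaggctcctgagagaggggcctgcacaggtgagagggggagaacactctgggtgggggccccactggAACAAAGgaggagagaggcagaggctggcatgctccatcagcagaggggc
TCF7L2, chr10:113126383-113126632, plus strand: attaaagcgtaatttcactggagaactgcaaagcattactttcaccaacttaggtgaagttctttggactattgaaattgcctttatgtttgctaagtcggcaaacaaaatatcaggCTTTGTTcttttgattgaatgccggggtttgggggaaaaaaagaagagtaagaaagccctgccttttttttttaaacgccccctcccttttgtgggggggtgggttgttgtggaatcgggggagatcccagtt
APC, chr5:112707248-112707497, plus strand: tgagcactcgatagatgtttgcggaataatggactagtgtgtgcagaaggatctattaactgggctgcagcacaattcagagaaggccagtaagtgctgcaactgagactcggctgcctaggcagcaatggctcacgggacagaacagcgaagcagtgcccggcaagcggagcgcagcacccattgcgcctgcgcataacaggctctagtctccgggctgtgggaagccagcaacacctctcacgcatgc
WNT5A, chr3:55481399-55481648, minus strand: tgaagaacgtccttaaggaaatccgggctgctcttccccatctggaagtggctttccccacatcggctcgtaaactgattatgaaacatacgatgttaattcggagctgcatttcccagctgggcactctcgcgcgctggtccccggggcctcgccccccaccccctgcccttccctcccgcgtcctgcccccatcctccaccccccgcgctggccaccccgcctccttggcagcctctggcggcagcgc
In GENCODE 29 the stretch of DKK1 lies in an exon of PRKG1-AS1, a noncoding gene on the opposite strand. Those of TCF7, TCF7L2 and WNT5A start internal transcripts and lie in introns of the genes themselves, and that of APC lies outside annotated genes. DKK1 held a pair of matches, 95 and 76 bases before the start, that do not overlap. TCF7 held 1 match 50 bases before this start and TCF7L2 held 1 match 133 bases before its own. These starts were printed for their matches, and the other RefSeq windows of TCF7 and TCF7L2, including the upstream ones, held none. APC and WNT5A held none in the windows shown. RefSeq windows were found for 45 of the 60 genes (59 windows), and 4 genes (DKK1, TCF7, TCF7L2 and WNT3) held at least 1 match. That was 6.78% of their windows, against 13.8% of all 35116 RefSeq windows. A match describes letters and was not tested as a site.

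With all 6 libraries, edgeR's quasi-likelihood test (Benjamini-Hochberg adjustment over 15870 genes, a call at an adjusted p under 0.05) called 0 of the 36 genes, against 3.09% of all tested genes. An unadjusted p under 0.05 was reached by 9 of the 36 (25.0%), against 25.1% of all genes. Differences pointed higher in the siRNA libraries for 12 genes and lower for 24, with a median log2 fold change of -0.07 against -0.02 over all genes. DESeq2 called 3 (8.33%), namely WNT5A and WLS as lower and APC as higher, against 11.4% of the genes to which it gave an adjusted p. The groups did not overlap for 12 of the 36 (33.3%), against 38.5% of all genes; 5 were higher (WNT2B, FZD5, DVL3, APC and TNIK) and 7 lower (WNT5A, WLS, FZD7, LRP6, RYK, CTNNB1 and PYGO2).

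Without NC 3, 15 of the 36 were called (41.7%), against 35.2% of all genes. Of these, 3 rose (APC, FZD5 and FZD6, 8.33%), where 16.9% of all genes were called higher. The other 12 fell (33.3%), where 18.3% of all genes were called lower: WNT5A, PORCN, WLS, FZD1, FZD2, FZD7, FZD8, RYK, CTNNB1, TCF7, TCF7L2 and PYGO2. None of the 15 passed an absolute log2 fold change of 1, and the median of the 36 was -0.12 against 0.01 over all genes. These are calls over 2 NC and 3 siRNA libraries. For 8 of the 15 the groups of all 6 libraries did not overlap. The 15 were picked through 5 of these same libraries, so this is no separate test. Over all 36 the groups did not overlap for 33.3%, against 38.5% of all genes. NC 3 lay outside the range of the other 5 libraries for 19 of the 36 genes (52.8%; 8 above and 11 below), against 71.4% of all genes.

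**Figure D2:**
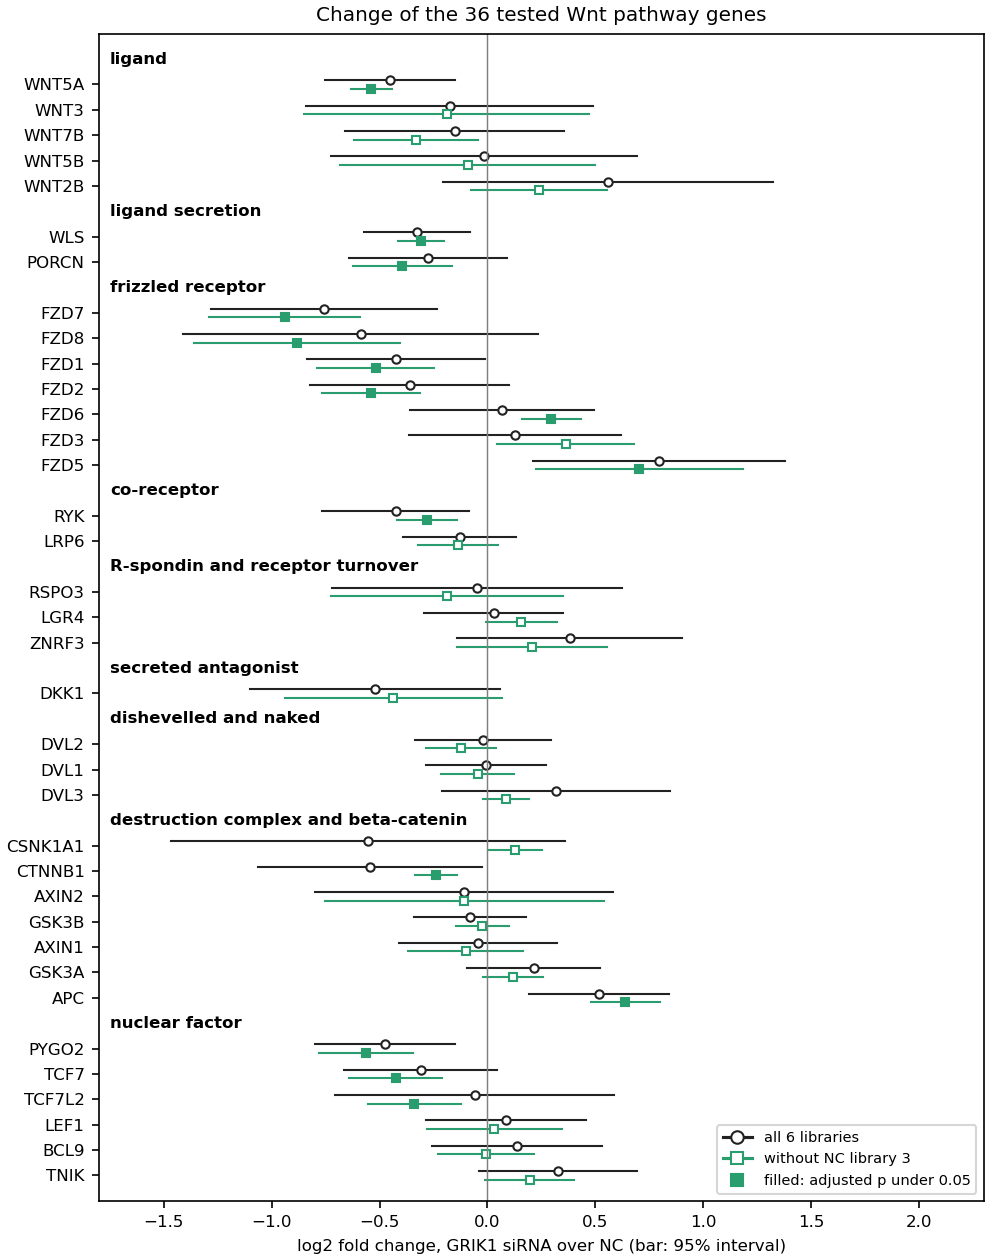
Log2 fold change of the 36 tested Wnt pathway genes, GRIK1 siRNA over NC, by role; black circles use all 6 libraries, green squares leave out NC library 3, bars are 95% intervals and filled symbols have an adjusted p under 0.05. No black symbol is filled and 15 green ones are, 12 to the left of 0 and 3 to the right.

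Among the ligands, WNT5A stood far above the others and was lower in the siRNA libraries. WNT5A (chromosome 3, 55465715 to 55490539, minus strand, GRCh38) had NC levels of 54.1, 54.9 and 39.5 FPKM and siRNA levels of 38.5, 38.2 and 38.0 FPKM. The next ligand, WNT7B, averaged 2.44 FPKM. WNT5A made up 90.4% to 91.7% of the summed FPKM of the 12 listed WNT genes in the NC libraries and 86.9% to 88.9% in the siRNA libraries. On the scale of the library values that follow, counts divided by the TMM-scaled library size (normalised CPM), it had 382, 392 and 318 against 268, 266 and 266. All siRNA libraries lay below all NC libraries, with NC 3 the nearest. In such bulk samples, fewer cells of a kind and less RNA per cell cannot be told apart. With all libraries the log2 fold change was -0.45 ± 0.13 (SE, n = 3 and 3; edgeR adjusted p = 0.0993, DESeq2 adjusted p = 0.0193), and without NC 3 it fell by 31.1% (log2 -0.54 ± 0.04, edgeR adjusted p = 6.98e-08). The antisense gene WNT5A-AS1, at 5.97 FPKM, overlaps it on the opposite strand, and whether the counting used strand is not given in the sources used here. WNT2B, WNT3, WNT5B and WNT7B were not called in either fit, with log2 fold changes of -0.18 to 0.56 with all libraries and -0.33 to 0.24 without NC 3. WNT2B was at 8.64, 7.99 and 3.38 normalised CPM against 9.74, 8.80 and 10.8, so that NC 3 held less than the other libraries.

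Both genes for ligand secretion were called lower without NC 3, where 18.3% of all genes were. With all 6 libraries edgeR called 0 of the 2 (3.09% of all genes) and DESeq2 called 1 (11.4% of all genes). WLS, which carries lipid-modified Wnt proteins to the cell surface, had 159, 151 and 162 normalised CPM under NC and 128, 125 and 124 under siRNA. Here NC 3 sat with the other NC libraries and the groups lay apart. Its log2 fold change was -0.33 ± 0.11 with all libraries (edgeR adjusted p = 0.121, DESeq2 adjusted p = 0.0419), and without NC 3 it fell by 19.2% (edgeR adjusted p = 1.38e-04). PORCN, the acyltransferase that adds the lipid, had 21.7, 19.0 and 15.5 against 15.8, 14.9 and 15.8. NC 3 fell inside the siRNA range, and the groups overlapped. Without NC 3 it fell by 23.9% (edgeR adjusted p = 0.00878), against a log2 fold change of -0.28 ± 0.16 with all libraries (adjusted p = 0.306).

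The frizzled receptors pointed in different directions. With all 6 libraries 0 of 7 tested were called by edgeR or DESeq2 (3.09% and 11.4% of all genes). An unadjusted p under 0.05 in edgeR was reached by 3 of the 7 (42.9%, against 25.1% of all genes). Without NC 3, 6 of the 7 were called, against 35.2% of all genes: FZD1, FZD2, FZD7 and FZD8 lower, FZD5 and FZD6 higher. FZD6, the most abundant at a mean of 20.2 FPKM, had 72.4, 65.5 and 104 normalised CPM in the NC libraries against 86.3, 86.2 and 81.5. The siRNA libraries lay between NC 3 and the other NC libraries, so the call rests on leaving NC 3 out: the log2 fold change was 0.07 ± 0.18 with all libraries (edgeR adjusted p = 0.835) and 0.30 ± 0.06 without it (adjusted p = 0.00157). The antisense gene BAALC-AS1 overlaps FZD6 on the opposite strand, at 0.763 FPKM.

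FZD7 showed the largest drop among the 36 tested genes in both fits. Its NC values were 10.2, 8.98 and 6.19 normalised CPM and its siRNA values 4.56, 5.40 and 4.96, from 58 to 114 counts per library. The groups did not overlap, and NC 3 was again nearest to the siRNA libraries. The log2 fold change was -0.76 ± 0.22 with all libraries (edgeR adjusted p = 0.104, DESeq2 adjusted p = 0.0515), and without NC 3 it fell by 47.9% (adjusted p = 2.56e-04). FZD2 had 26.4, 27.2 and 17.4 against 20.3, 18.5 and 16.4, with NC 3 inside the siRNA range. Its log2 fold change was -0.36 ± 0.20 with all libraries (adjusted p = 0.291), and without NC 3 it fell by 31.2% (adjusted p = 7.76e-04). FZD1 had 24.1, 23.4 and 19.3 against 20.2, 15.2 and 14.4, with siRNA 1 and NC 3 overlapping. Here the log2 fold change was -0.42 ± 0.18 with all libraries (adjusted p = 0.188), and without NC 3 it fell by 30.2% (adjusted p = 0.00445).

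FZD8 and FZD5 were near the low end of the tested range. FZD8 had 6.59, 5.21 and 2.65 normalised CPM against 3.85, 2.55 and 3.19, where NC 3 held 0.450 times the mean of NC 1 and NC 2. Without it FZD8 fell by 45.8% (edgeR adjusted p = 0.0055), against a log2 fold change of -0.59 ± 0.35 with all libraries (adjusted p = 0.329). FZD5 went the other way, with 3.65, 4.67 and 3.38 against 5.11, 6.64 and 8.52, from 41 to 115 counts per library. No siRNA library reached down to the NC range. Its log2 fold change was 0.79 ± 0.25 with all libraries (adjusted p = 0.118) and 0.70 ± 0.23 without NC 3 (adjusted p = 0.0228). FZD3 was not called in either fit (0.13 and 0.36 on the log2 scale).

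The summed level of the frizzled family ran from 31.3 to 34.2 FPKM over the 6 libraries. Within that sum FZD6 held 52.9%, 50.7% and 69.8% under NC and 63.7%, 66.3% and 65.4% under siRNA. FZD2 held 20.7%, 22.6% and 12.5% against 16.2%, 15.3% and 14.2%. In both shares NC 3 lay beyond the siRNA libraries, on the far side from NC 1 and NC 2. The summed WNT level was 59.8, 60.6 and 43.0 FPKM under NC and 43.3, 43.3 and 43.7 under siRNA, with NC 3 beside the siRNA libraries. Shares are descriptions and carry no test.

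**Figure D3:**
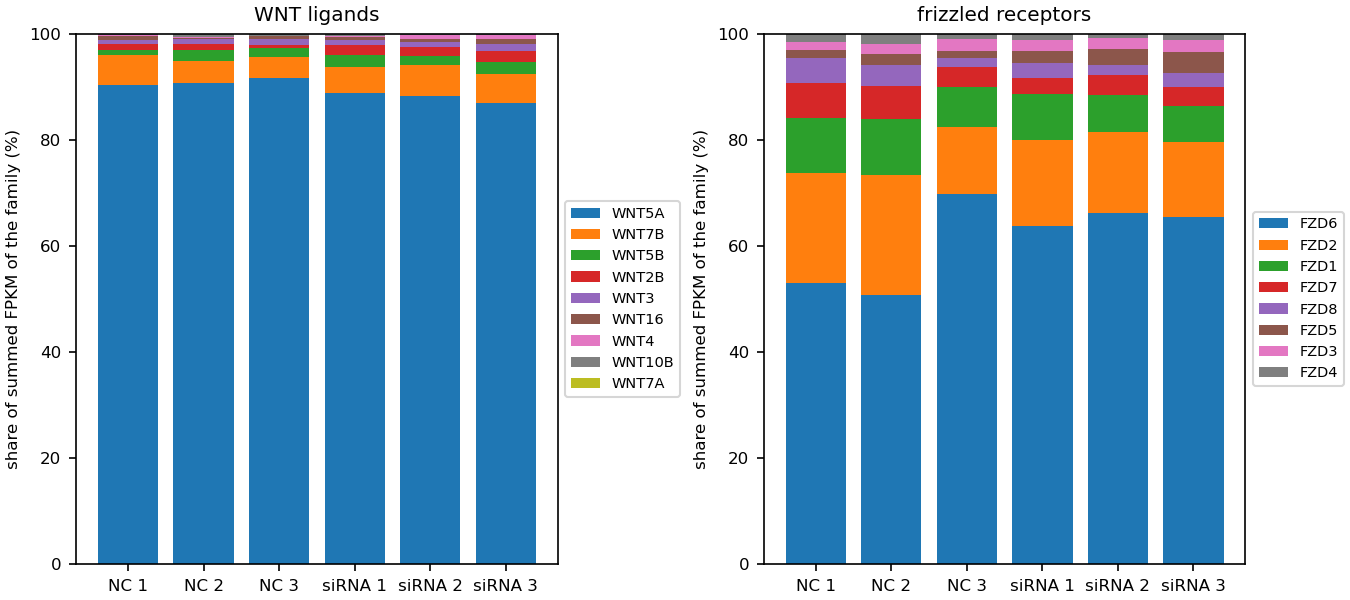
Share of each gene in the summed FPKM of the listed WNT ligands (left) and frizzled receptors (right), in percent, with 1 stacked bar per library. WNT5A fills 86.9% to 91.7% of every ligand bar, while FZD6 fills 50.7% and 52.9% of the receptor bar in NC 2 and NC 1 and 63.7% to 69.8% in the other 4.

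Of the co-receptors, RYK, a receptor that binds Wnt ligands including WNT5A, had 80.0, 74.2 and 101 normalised CPM under NC and 59.5, 65.5 and 65.3 under siRNA. NC 3 was the highest and no siRNA library reached the NC range. For RYK the log2 fold change was -0.43 ± 0.15 with all libraries (edgeR adjusted p = 0.137), and without NC 3 it fell by 17.6% (adjusted p = 0.00327). LRP6, the main co-receptor of the beta-catenin route, was not called (log2 fold changes of -0.13 and -0.14), although its groups did not overlap. LRP5 had 3 to 6 counts per library.

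R-spondins strengthen the Wnt signal through LGR receptors by removing the ligases RNF43 and ZNRF3, which otherwise clear frizzled receptors. LGR4 was the main receptor here, with 37.7, 39.3 and 49.1 normalised CPM against 41.2, 44.2 and 43.2. NC 3 was the highest library, and the difference was not called in either fit (0.03 ± 0.14 and 0.16 ± 0.08, edgeR adjusted p = 0.914 and 0.132). ZNRF3, with 8.29, 7.45 and 5.23 against 9.98, 9.80 and 7.48, overlapped between groups (0.38 ± 0.22 with all libraries, adjusted p = 0.319; 0.21 ± 0.16 without NC 3, adjusted p = 0.363). RSPO3, at a mean of 0.797 FPKM, was not called.

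Of the secreted antagonists, DKK1, which binds LRP6 and blocks it, was the 1 gene of 8 tested. It had 4.10, 6.02 and 5.95 normalised CPM against 3.22, 4.63 and 3.33, with NC 1 inside the siRNA range. From 41 to 74 counts per library lay behind these values, and the difference was not called (-0.52 ± 0.25 with all libraries, edgeR adjusted p = 0.234; -0.44 ± 0.24 without NC 3, adjusted p = 0.172). DKK1 held 55.6% to 78.1% of the summed antagonist level, which was only 2.14 to 3.62 FPKM. SFRP4 had 29 counts in NC 3 and 1 to 7 elsewhere.

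The dishevelled genes carry the signal from receptor to destruction complex, and none of them was called in either fit. DVL3, the most abundant, had 179, 168 and 96.2 normalised CPM against 191, 179 and 181. NC 3 held 0.555 times the mean of NC 1 and NC 2, below all other libraries. The log2 fold change was 0.32 ± 0.23 with all libraries (edgeR adjusted p = 0.400) and 0.09 ± 0.05 without NC 3 (adjusted p = 0.202, 95% interval -0.02 to 0.19). DVL1 and DVL2 were not called (-0.01 and -0.02 with all libraries, -0.05 and -0.12 without NC 3).

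Of the 7 genes grouped as destruction complex and beta-catenin, APC was higher and beta-catenin lower in every siRNA library. These 2 without overlap were 28.6%, against 38.5% of all genes. With all 6 libraries edgeR called 0 of the 7 (3.09% of all genes) and DESeq2 called 1 (14.3%, against 11.4%). Without NC 3, the same 2 were called (28.6%, against 35.2% of all genes). APC, the scaffold protein that is a tumour suppressor in the colon (chromosome 5, 112707498 to 112846239, plus strand), had 39.6, 42.8 and 51.9 normalised CPM under NC and 60.1, 68.2 and 63.9 under siRNA. Every siRNA library was above every NC library, and NC 3 was the highest of the controls. The log2 fold change was 0.52 ± 0.14 with all libraries (edgeR adjusted p = 0.0879, the lowest of the 36; DESeq2 adjusted p = 0.0294) and 0.64 ± 0.08 without NC 3 (adjusted p = 4.92e-06), a rise of 55.7%. CTNNB1, which encodes beta-catenin, had 329, 327 and 560 against 286, 269 and 280. NC 3 stood at 1.70 times the mean of NC 1 and NC 2, yet the siRNA libraries were also below those 2. The log2 fold change was -0.54 ± 0.22 with all libraries (adjusted p = 0.184), and without NC 3 it fell by 15.2% (-0.24 ± 0.05, adjusted p = 6.16e-04). These are transcript levels, and beta-catenin protein was not measured here.

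The other components of the complex were not called in either fit. CSNK1A1, the casein kinase that primes beta-catenin, had 76.5, 81.1 and 222 normalised CPM against 88.7, 85.7 and 83.6, so NC 3 alone stood 2.81 times above the mean of NC 1 and NC 2. Its direction turned with that library, from -0.56 ± 0.39 with all 6 to 0.13 ± 0.06 without NC 3 (edgeR adjusted p = 0.397 and 0.109). GSK3A, GSK3B and AXIN1 lay between -0.08 and 0.21 with all libraries and between -0.10 and 0.12 without NC 3. AXIN2, a textbook target of beta-catenin that feeds back on the complex, had only 25 to 44 counts per library, or 2.32, 3.14 and 2.73 normalised CPM against 3.46, 1.93 and 2.22. Its groups overlapped, and the 95% interval of -0.80 to 0.58 with all libraries holds sizeable changes in either direction (adjusted p = 0.837; -0.11 ± 0.31 without NC 3, adjusted p = 0.827).

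Of the 6 tested nuclear factors, 3 were called without NC 3 (35.2% of all genes). These were TCF7, TCF7L2 and PYGO2, all lower, where 18.3% of all genes were called lower. LEF1, TNIK and BCL9 were not called in either fit. With all 6 libraries edgeR and DESeq2 each called 0 of the 6 (3.09% and 11.4% of all genes). An unadjusted p under 0.05 in edgeR was reached by 1 (16.7%, against 25.1% of all genes). PYGO2, a cofactor that joins beta-catenin through BCL9, had 24.2, 23.4 and 19.5 normalised CPM against 17.05, 15.8 and 15.5. The groups did not overlap, and NC 3 was again the lowest control. For PYGO2 the log2 fold change was -0.47 ± 0.14 with all libraries (edgeR adjusted p = 0.102), and without NC 3 it fell by 32.3% (adjusted p = 3.67e-04). PYGO2 overlaps SHC1 on the same strand, a gene at 72.3 FPKM whose own log2 fold changes were -0.34 and -0.36, so its counts are uncertain.

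TCF7, a TCF factor and feedback target with an internal start printed above, had 27.1, 24.9 and 19.9 normalised CPM against 18.9, 20.7 and 18.4. NC 3 fell between the siRNA libraries, and without it TCF7 fell by 25.5% (edgeR adjusted p = 0.00339; -0.31 ± 0.15 and adjusted p = 0.246 with all libraries). It overlaps SKP1, at 5.07 FPKM, on the opposite strand. TCF7L2 had 24.0, 23.7 and 11.3 against 18.8, 17.5 and 20.1, with NC 3 at 0.472 times the mean of NC 1 and NC 2. Without NC 3 it fell by 20.9% (adjusted p = 0.0158), and with all libraries the log2 fold change was -0.06 ± 0.28 (adjusted p = 0.908). A gene without a symbol overlaps TCF7L2 on the opposite strand, at 2.56 FPKM and 84 counts over all libraries. The log2 fold change of that gene was -0.53 with all libraries (edgeR adjusted p = 0.602) and -1.02 without NC 3 (adjusted p = 0.0457). LEF1, also a feedback target, overlapped between the groups, at 8.20, 9.25 and 7.72 against 9.35, 8.11 and 9.26 (0.09 ± 0.16 with all libraries, adjusted p = 0.754; 0.03 ± 0.15 without NC 3, adjusted p = 0.900).

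**Figure D4:**
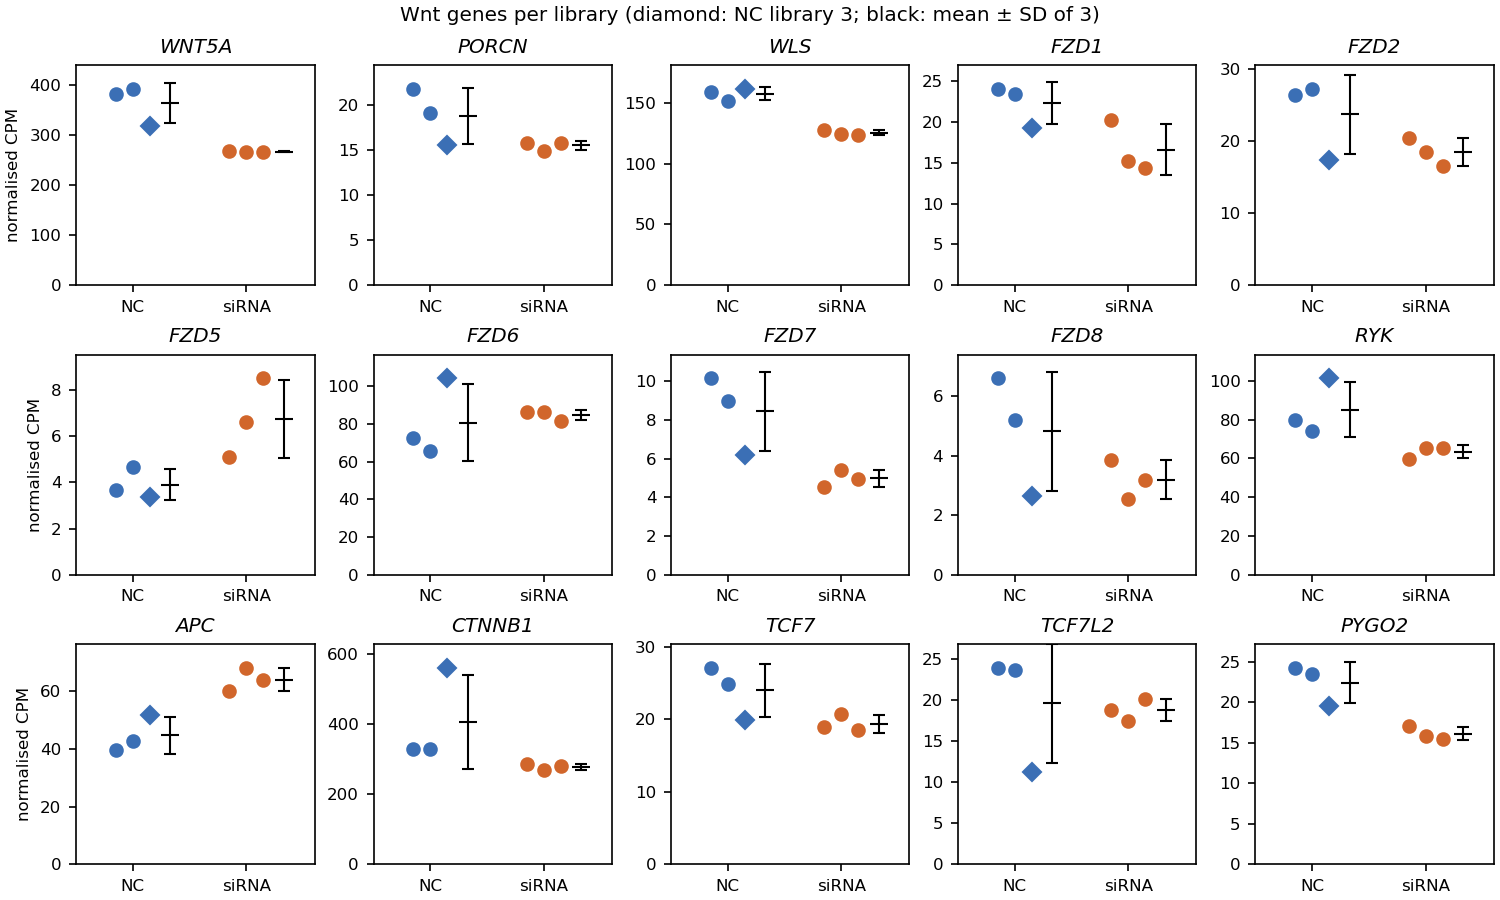
Normalised CPM in each library for the 15 Wnt pathway genes called without NC library 3, with NC in blue and GRIK1 siRNA in orange; diamonds are NC library 3, black bars are the mean ± SD of the 3 libraries, and each vertical axis starts at 0. In WNT5A, WLS, FZD5, FZD7, RYK, APC, CTNNB1 and PYGO2 the groups do not overlap, and in the other 7 NC 3 falls within or beyond the siRNA libraries.

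Feedback targets were read as a group because they report on the beta-catenin route. Of 8 listed (AXIN2, LEF1, TCF7, NKD1, RNF43, ZNRF3, LGR5 and DKK1), 5 were abundant enough to test. None was called with all libraries by edgeR or DESeq2 (3.09% and 11.4% of all genes), and none had an unadjusted p under 0.05 in edgeR (25.1% of all genes). Without NC 3 only TCF7 was called, as lower, which is 20.0% of the 5 against 35.2% of all genes. The median log2 fold change was -0.11 in both fits, with 2 higher and 3 lower.

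Other genes of the pathway, 104 in a second list, gave 68 tested. With all libraries 32 were higher and 36 lower, edgeR called 0, and 17 (25.0%, against 25.1% of all genes) had an unadjusted p under 0.05. DESeq2 called 7 (10.3%, against 11.4%), of which 3 were higher and 4 lower. Without NC 3, 30 were called (44.1%, against 35.2%), 16 higher and 14 lower. Of 11 tested textbook targets outside the 60 genes, 8 pointed lower with all libraries and 10 without NC 3. With all libraries edgeR called 0 of the 11 (3.09% of all genes), and 3 (27.3%, against 25.1%) had an unadjusted p under 0.05. DESeq2 called 2 (18.2%, against 11.4%), both lower. Without NC 3, 5 of the 11 fell (45.5%, against 18.3% of all genes) and 1 rose (9.09%, against 16.9%). MYC, a driver of growth, had 57.6, 55.8 and 50.03 normalised CPM against 38.4, 37.1 and 40.2, and its groups lay apart (-0.50 ± 0.12, edgeR adjusted p = 0.0641, DESeq2 adjusted p = 0.00924; -0.55 ± 0.07 without NC 3, edgeR adjusted p = 1.56e-05). CCND1, which encodes cyclin D1, had 400, 372 and 337 against 275, 262 and 267, also without overlap (-0.47 ± 0.12, edgeR adjusted p = 0.0821, DESeq2 adjusted p = 0.00641; -0.53 ± 0.05 without NC 3, edgeR adjusted p = 2.16e-07). Both genes answer to many other inputs. The remaining calls without NC 3 in that target group were CD44, EPHB2 and FOSL1 as lower and JUN as higher.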

How the data were processed

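RNA sequencing of U87-MG cells gave 3 NC libraries and 3 libraries labelled GRIK1 siRNA, grouped by their titles. For each of 61806 genes the authors deposited a whole-number read count, not normalized, and an FPKM value that scales this count to the library total and to exonic length (checked by recomputing, 100% of values). The submitters' processing notes name cutadapt 1.9.1, HISAT2, HTSeq and GRCh38. The strand setting is not given in the sources used here. Levels between genes are given only as the deposited FPKM.

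The 15870 genes averaging 0.5 FPKM or more were tested with edgeR 4.0.16 in R 4.3.3 (TMM scaling, quasi-likelihood test, Benjamini-Hochberg adjustment over all tested genes, no block), with a call at an adjusted p under 0.05. Alternatives were other scalings, filters, DESeq2 1.42.0, limma-trend (limma 3.58.1) on log2(FPKM + 1) and log2(FPKM + 0.1), a replicate block, leaving out each library, and a robust dispersion fit, added after the data were seen. Python 3.11.15 with pandas 2.3.3 made the summaries. The 60 genes, the roles and the lists were chosen with earlier results of these data known, and so was the interest in NC 3. Library values were printed for genes called with or without NC 3, tested feedback targets and the most abundant gene of each role. MYC, CCND1 and other genes outside the 60 were named after their values were seen, as were WNT2B, CSNK1A1 and SFRP4. Sequences come from RefSeq promoters (GRCh38.p14). The places of the printed stretches come from GENCODE 29, and overlaps between genes come from the deposited gene coordinates. Total counts of 11099909 to 14006968 per library set the counting precision.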

Additional observations from a re-analysis of the deposited data

How the results depend on the processing

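Of the 21 genes named by rule, 17 kept their direction in each of the 15 alternatives that tested them (FZD5, FZD8 and AXIN2 were not tested at a mean of at least 1 FPKM). The others reversed: FZD6 went to -0.0023 without NC 1 and -0.062 without NC 2 (0.30 without NC 3), TCF7L2 to 0.053 and 0.097 under limma-trend (pseudocounts 1 and 0.1) and to 0.11 and 0.099 without NC 1 or NC 2 (-0.34 without NC 3), AXIN2 to 0.0025 without NC 2 and 0.055 without siRNA 2 (-0.39 without siRNA 1), and LGR4 to -0.0022 with no filter and to -0.042 and -0.018 without NC 1 or NC 2 (0.16 without NC 3). CSNK1A1, outside that rule, turned from -0.56 to 0.13 without NC 3. The cause was not tested.

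The count of the 60 genes called, 0 with all libraries, was 3 under DESeq2 (1 higher, 2 lower) and ran from 0 to 15 as libraries were left out (0 to 3 higher, 0 to 12 lower). The 15 came without NC 3; leaving out any other library gave 0 calls over all genes in edgeR, with 2238 to 4434 at an unadjusted p under 0.05. For feedback targets the range was 0 to 1. Other pathway genes gave 4 calls with no filter, where 1403 of all 34080 genes tested were called. They gave 7 under DESeq2 and 0 to 30 over left-out libraries. Role medians moved too: ligands from -0.15 to -0.03 under both limma-trend scales, secreted antagonists (DKK1 alone) from -0.52 to -0.29 at pseudocount 1, ligand secretion from -0.30 to -0.18 and -0.21 under limma-trend, frizzled receptors from -0.36 to -0.22 under limma-trend (pseudocount 1) and from -0.52 without NC 3 to -0.25 without NC 2, and co-receptors from -0.28 to -0.16 with no filter and to -0.16 and -0.18 under limma-trend. Some medians near 0 changed sign. Nuclear factors went from 0.01 to -0.17 without NC 3 and to 0.13 without NC 2. R-spondins and receptor turnover went from 0.03 to 0.29 without NC 1 and to -0.02 without NC 2.

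Equal replicate numbers did not pair the libraries (correlations of their deviations -0.07, 0.04 and -0.04). A replicate block gave 0 calls among the 60 genes, and 0 over all genes, with 3324 at an unadjusted p under 0.05; TCF7L2 turned to 0.0046 there. At 25 to 115 counts per library, AXIN2, FZD5, FZD8 and DKK1 rest on fewer reads than most of the other genes named.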

Other observations

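The branch of Wnt signalling that passes through planar polarity and calcium, rather than beta-catenin, gave 17 tested genes of 21. None was called with all 6 libraries by edgeR, against 3.09% of all genes. An unadjusted p under 0.05 in edgeR was reached by 5 (29.4%, against 25.1% of all genes), and DESeq2 called 1 (5.88%, against 11.4%). Without NC 3, 5 were called (29.4%, against 35.2% of all genes): CELSR1, CELSR3 and SCRIB as higher and VANGL1 and CAMK2D as lower. CELSR3, a cadherin with a role in planar polarity, had 62.4, 55.4 and 21.7 normalised CPM under NC and 106, 122 and 120 under siRNA. Its groups did not overlap, and NC 3 was the lowest library (log2 fold change 1.32 ± 0.35, edgeR adjusted p = 0.0825, DESeq2 adjusted p = 0.00455; 0.98 ± 0.07 without NC 3, edgeR adjusted p = 2.3e-08). CELSR1, of the same family, had 25.6, 27.0 and 9.97 against 38.7, 39.9 and 37.4, again with NC 3 lowest. SCRIB, a scaffold protein of cell polarity, had 46.7, 43.5 and 22.0 against 65.1, 56.0 and 60.01. VANGL1, a core polarity protein, went the other way, at 59.96, 63.8 and 70.9 against 52.1, 51.1 and 54.0. RHOA and RAC1, the GTPases downstream, were not called in either fit.

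A list of other destruction and degradation components had 21 tested genes. With all libraries edgeR called 0 (3.09% of all genes) and DESeq2 called 3 (14.3%, against 11.4% of all genes). An unadjusted p under 0.05 in edgeR was reached by 6 (28.6%, against 25.1%). Without NC 3, 10 were called (47.6%, against 35.2% of all genes), 6 higher and 4 lower. Among them, TNKS and TNKS2, whose products mark axin for breakdown, rose without NC 3 by 25.0% and 24.9% (edgeR adjusted p = 4.26e-04 and 1.09e-04). With all libraries edgeR called neither (adjusted p = 0.109 and 0.452). CSNK2A2, a catalytic subunit of casein kinase 2, had 46.9, 45.3 and 61.1 normalised CPM against 35.4, 30.0 and 31.8, while CSNK2A1, the other catalytic subunit, had 128, 122 and 149 against 156, 153 and 150. Neither gene was called with all libraries by edgeR (adjusted p = 0.0645 and 0.331); DESeq2 called CSNK2A2 (adjusted p = 0.00987), and without NC 3 it fell by 29.8% while CSNK2A1 rose by 22.1%.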
